A study of Mus musculus with 6 samples.

Results

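The 35 genes described here encode the machinery of mitosis: kinases, cyclins, checkpoint and anaphase-promoting factors, kinetochore and spindle proteins, cytokinesis factors and chromosome structure proteins. They were measured in whole ovaries of wild-type (WT) mice and of FORKO mice, a knockout of the receptor for follicle-stimulating hormone (FSH). A probe set was assigned to a gene where the platform annotation gave exactly 1 symbol equal to that gene, and where several matched, the one with the highest signal averaged over the 6 arrays stood for it. This gave 34 of the 35 genes, out of 18193 genes with a probe set of 1 symbol. Cyclin B1 (Ccnb1) had no such probe set and was not analysed here. All 34 standing probe sets were among the 22506 probe sets bright enough to be tested, although the FORKO means of Ttk and Dlgap5 alone lay below the brightness limit, a mean signal of 20.4.

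All samples were whole ovaries of 8-month-old female mice on the 129T2 svEmsJ background, bred from heterozygotes, with both ovaries pooled. The WT group carried the intact receptor gene, and the FORKO group lacked all of its variants; the labels name no tissue-specific driver for the deletion. Each group had 3 samples with 1 array each (Affymetrix Mouse Genome 430 2.0, which reports 1 signal per probe set). The titles and the genotype field name the groups, while free-text fields of the FORKO samples, on collection and dissection, mention wild type. How many mice contributed to a sample is not stated, and p-values therefore cover the spread among these 6 samples. The probe set for the FSH receptor itself, Fshr, read 99.6, 59.4 and 118.8 on WT arrays 1, 2 and 3 and 1.20, 11.2 and 11.7 on the FORKO arrays. Fshr fell by 2.90 ± 0.39 on the log2 scale (SE; limma adjusted p = 0.0102). The FORKO signals lay below the brightness limit and near the pseudocount added before taking logs, so the size of this fall depends on it: it was -3.69 with a pseudocount of 1 and -2.17 with 16. Leaving out WT replicate 1 or 3 gave adjusted p values of 0.0536 and 0.0599.

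At mitosis, cyclin-dependent kinase 1 bound to A- and B-type cyclins starts chromosome condensation and spindle assembly, and Aurora and Polo-like kinases order the later steps. The spindle checkpoint holds back the anaphase-promoting complex until every kinetochore is attached to microtubules. Once that complex, with its activator Cdc20, has marked cyclin B and securin for destruction, sister chromatids separate and cytokinesis splits the cell. In the adult ovary the granulosa cells of growing follicles are a main dividing population, and FSH is a known stimulus of their growth. Oocytes, arrested in meiosis, store transcripts of several of the same genes. Many mitotic genes are transcribed late in the cell cycle through a CHR element and nearby CCAAT boxes, which bind NF-Y, in their promoters.

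Promoter sequences of 5 genes are shown because the group moves together across the arrays and these had the largest differences among genes whose FORKO signals all lay below their WT signals, where a window was in the reference table used. Each line gives 250 bases before and 50 bases after an annotated start, 5′ to 3′ in the direction of the gene, from RefSeq on GRCm38.p6. For Ncapg, Top2a and Kif23 this start was not the start listed for the whole gene, and positions are counted from the start used for each window. Capitals mark exact matches to the letters CCAAT and to the letters TTTGAA on either strand, so that a match on the opposite strand reads ATTGG or TTCAAA.

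Bub1 (chr2:127831810-127832109, minus strand): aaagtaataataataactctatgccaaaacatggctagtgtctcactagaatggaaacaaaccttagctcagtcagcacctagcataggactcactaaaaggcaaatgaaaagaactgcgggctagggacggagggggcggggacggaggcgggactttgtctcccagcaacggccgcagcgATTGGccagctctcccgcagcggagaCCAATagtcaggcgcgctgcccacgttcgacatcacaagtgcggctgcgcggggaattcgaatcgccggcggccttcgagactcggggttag
Ncapg (chr5:45669675-45669974, plus strand): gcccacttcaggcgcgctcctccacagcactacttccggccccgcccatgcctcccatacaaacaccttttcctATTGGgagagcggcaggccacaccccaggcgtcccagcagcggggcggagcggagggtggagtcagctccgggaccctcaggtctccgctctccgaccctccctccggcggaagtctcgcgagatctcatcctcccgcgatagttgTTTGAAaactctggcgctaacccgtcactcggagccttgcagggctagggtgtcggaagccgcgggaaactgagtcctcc
Top2a (chr11:99024140-99024439, minus strand): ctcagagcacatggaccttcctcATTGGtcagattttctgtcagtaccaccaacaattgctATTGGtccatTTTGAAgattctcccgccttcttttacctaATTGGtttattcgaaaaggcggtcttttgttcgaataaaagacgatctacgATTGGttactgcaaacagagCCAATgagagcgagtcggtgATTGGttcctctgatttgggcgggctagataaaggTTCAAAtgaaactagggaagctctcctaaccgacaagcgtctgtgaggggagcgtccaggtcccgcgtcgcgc
Kif23 (chr9:61946750-61947049, minus strand): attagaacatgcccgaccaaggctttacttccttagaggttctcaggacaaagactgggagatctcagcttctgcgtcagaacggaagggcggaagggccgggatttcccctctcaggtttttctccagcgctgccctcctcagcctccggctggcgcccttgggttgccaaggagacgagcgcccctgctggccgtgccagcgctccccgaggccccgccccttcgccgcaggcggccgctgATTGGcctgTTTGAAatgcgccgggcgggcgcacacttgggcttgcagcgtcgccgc
Cdc20 (chr4:118437294-118437593, minus strand): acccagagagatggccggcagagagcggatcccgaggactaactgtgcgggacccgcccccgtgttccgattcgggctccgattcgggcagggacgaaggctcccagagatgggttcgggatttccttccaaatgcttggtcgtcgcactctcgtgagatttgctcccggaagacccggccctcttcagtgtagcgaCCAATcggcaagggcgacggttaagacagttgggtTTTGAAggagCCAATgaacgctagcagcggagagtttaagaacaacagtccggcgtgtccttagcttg

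The Bub1 window held 2 matches to CCAAT and 0 to TTTGAA. Variant spellings of these elements were not searched, so a window without a match may still hold another form. The Ncapg and Kif23 windows each held 1 match to either motif, and in Kif23 they lay beside each other at the start, at -7 and 3. The Cdc20 window held CCAAT at -53 and -8 with TTTGAA between them at -18. The Top2a window held 6 matches to CCAAT and 2 to TTTGAA. Windows were listed for 29 of the 35 genes, 31 windows in all, since Ect2 and Prc1 each had 2 that share bases. Of these 31, 26 (83.9%) held CCAAT, against 37.4% of the 32851 windows of the whole table. TTTGAA was found in 23 (74.2%, against 17.9% of all windows), and both motifs in 22 (71.0%, against 6.95%). The E2F-type letters TTTCGCG were found only in the Cdk1 window, 1 of 31 (3.23%, against 0.849%).

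The 55 matches to CCAAT in these windows had a median position of -71 relative to the start, and the 30 matches to TTTGAA one of -16.5. The windows of Birc5, Mad2l1, Ncaph and Nusap1 had no match to any of the 3 motifs. No match overlapped one of another motif. Of 86 windows of other mitotic genes, described further on as companions, 62.8% held CCAAT, 39.5% TTTGAA and 26.7% both. Of 32 windows of DNA replication genes, 56.2% held CCAAT, 12.5% TTTGAA and 9.38% both, while 8 of 32 held TTTCGCG. A match describes letters in a window and shows neither binding nor use of the site.

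**Figure D1:**
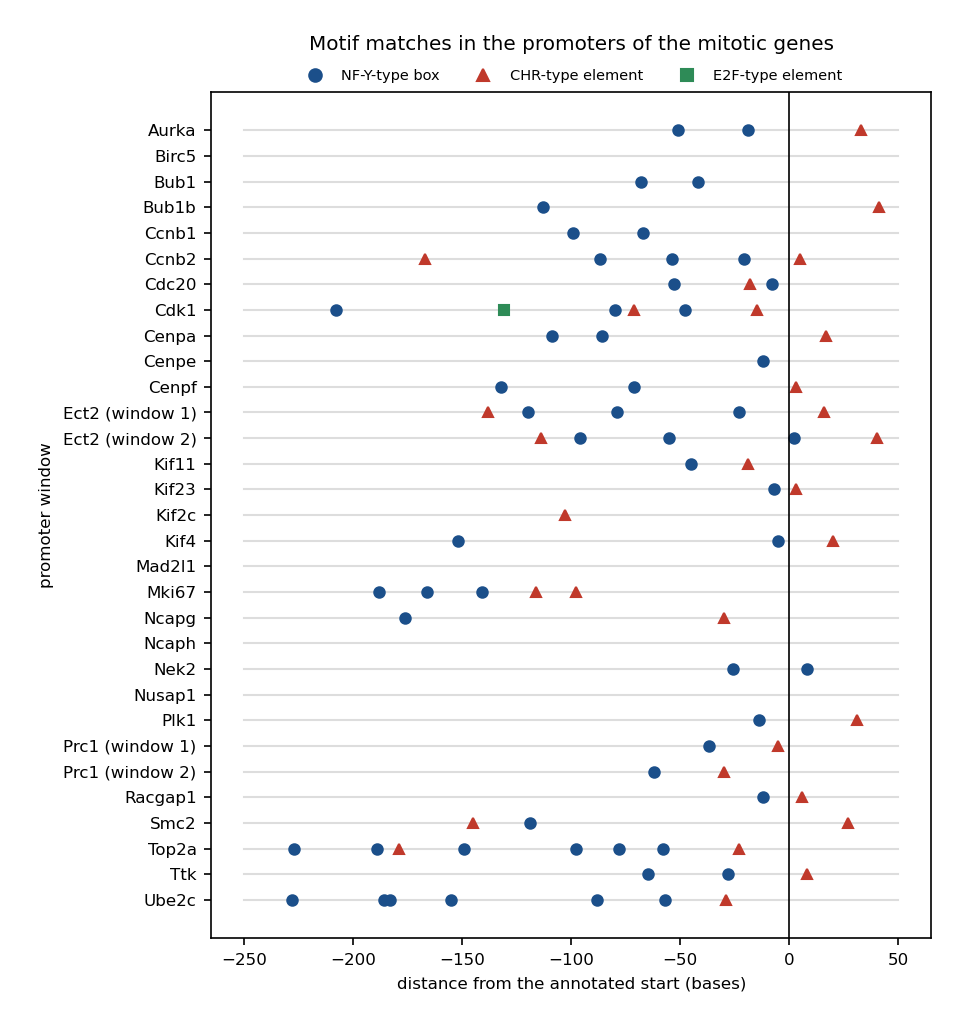
Positions of the motif matches in the promoter windows of the mitotic genes; the horizontal axis is the distance from the annotated start in bases, each row is 1 window, and circles, triangles and squares stand for the NF-Y-type box (CCAAT), the CHR-type element (TTTGAA) and the E2F-type element (TTTCGCG). Triangles gather close to the start, with a median of -16.5, and circles lie further upstream, with a median of -71.

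All 34 measured mitotic genes had a lower mean log2 signal in FORKO than in WT, but 0 of 34 passed the test. Differences are given as log2(signal + 5.73), FORKO minus WT, which understates the change of dim genes. They ran from -1.27 for Bub1 to -0.23 for Aurka, with a median of -0.59, while the median of all probe sets tested was -0.01. A negative sign alone was found for 51.2% of all probe sets tested. In limma 1.65% of all probe sets passed an adjusted p of 0.05 in either direction, and 0.595% did so on the lower side. The lowest adjusted p values of the group were 0.0657 for Kif2c and 0.0930 for Ncapg. At an unadjusted limma p of 0.05, 13 of 34 genes (38.2%) were lower, beside 6.93% of all probe sets. For 11 of 34 genes (32.4%) all 3 FORKO signals lay below all 3 WT signals, beside 10.4% of all probe sets. The 34 genes, like the lists further on, were counted by 1 standing probe set per gene. Counted in that way, 914 of 11199 genes tested were lower at that unadjusted p, and 1340 of 11199 had all FORKO signals below all WT signals. With the replicate number as a block, limma passed 2 of 34, Bub1 and Kif2c, beside 1.16% of all probe sets on the lower side. This block was adopted because same-numbered arrays deviated together in these same data, so passing with it is not independent support. In whole ovaries, fewer dividing cells and less RNA per cell cannot be told apart.

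The difference was unevenly spread over the FORKO samples. FORKO replicate 1 gave the lowest of the 6 signals for 33 of 34 genes, the exception being Smc4, and it was the lowest array for 2900 of all 11199 genes tested. That array also stood apart over all probe sets tested. Its log2 signals correlated with those of FORKO replicates 2 and 3 at r of 0.9335 and 0.9359, against 0.9757 between replicates 2 and 3. FORKO replicate 2 lay below all WT arrays for 15 of the 34 and replicate 3 for 18. Relative to the WT mean, the median over the 34 genes was -1.35 on FORKO replicate 1, -0.23 on replicate 2 and -0.30 on replicate 3. The WT arrays had medians of -0.23, 0.19 and 0.05, so WT replicate 1 and FORKO replicate 2 had like medians. Within same-numbered WT and FORKO arrays, which the pairing check took as pairs, FORKO was lower for 34, 30 and 33 of 34 genes in pairs 1, 2 and 3, and for 29 in all pairs. WT replicate 2 was the highest array for 23 genes, and a FORKO array was the highest for 3: replicate 2 for Nek2 and Kif11 and replicate 3 for Birc5. The summed signal of the 34 genes was 4543, 6015 and 5299 on the WT arrays and 2176, 4272 and 3856 on the FORKO arrays. These sums, in which bright genes weigh most, did not overlap between the groups. The mean of their log2 signals did overlap, at 6.68 on FORKO replicate 2 and 6.63 on WT replicate 1. Without FORKO replicate 1 the median difference was -0.26, 29 of 34 genes stayed below WT, and 0 passed limma, beside 1.20% of all probe sets on the lower side.

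**Figure D2:**
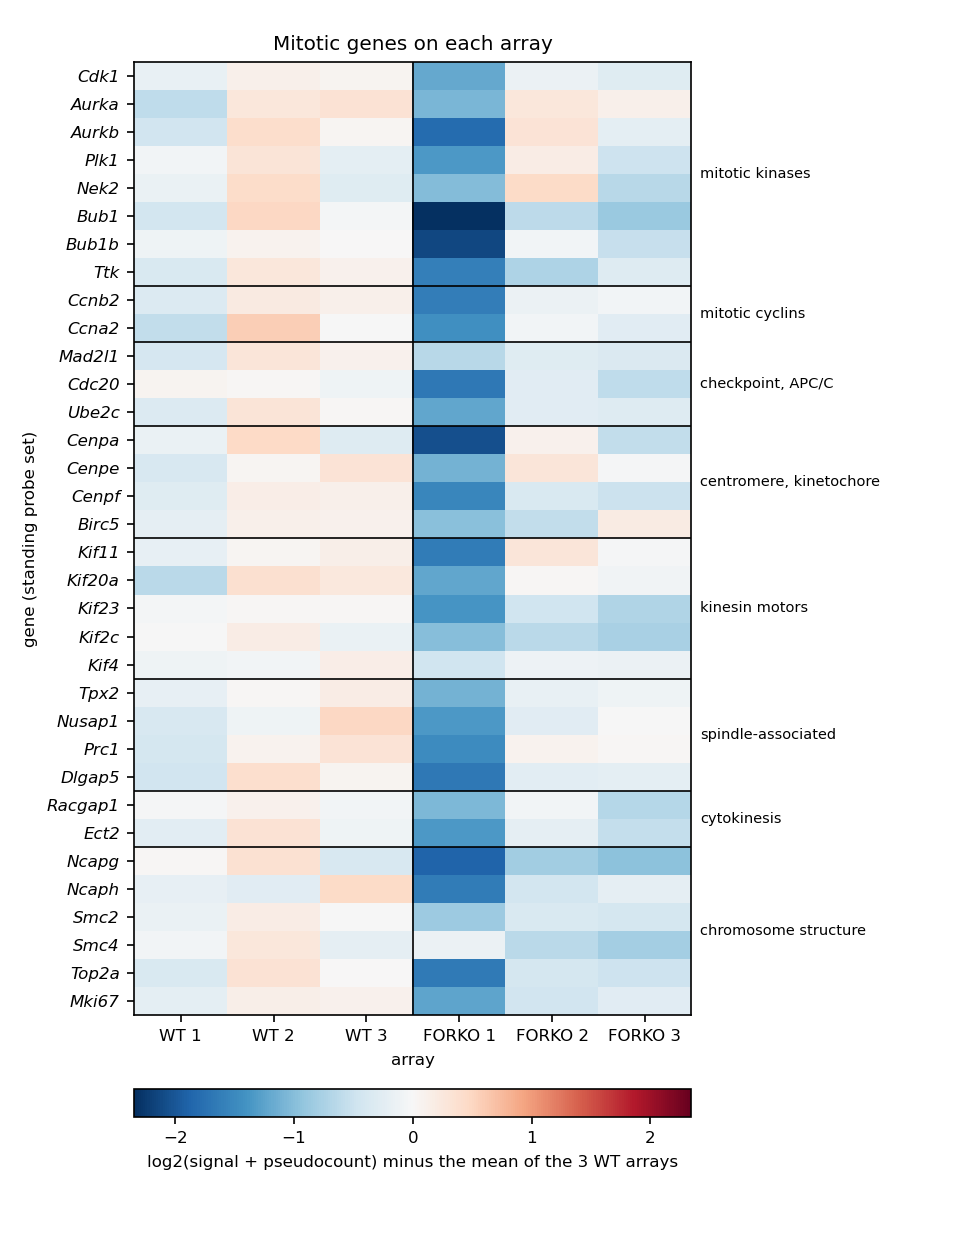
Heat map of the 34 mitotic genes (rows, grouped by role) on the 6 arrays (columns); colour gives log2(signal + pseudocount) minus the mean of the 3 WT arrays, blue below and red above it. The column of FORKO replicate 1 is blue for all 34 rows, while replicates 2 and 3 lie below the WT mean for 25 and 31 rows.

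Among the 8 mitotic kinases 0 passed, and their median difference was -0.56 (-0.18 without FORKO replicate 1). Bub1, the checkpoint kinase that prepares kinetochores for the checkpoint proteins, read 66.2, 130.4 and 88.2 on the WT arrays and 13.4, 58.1 and 47.7 on the FORKO arrays. The groups did not overlap, the lowest WT array standing only slightly above the highest FORKO array. The log2 difference was -1.27 ± 0.42 (SE; limma adjusted p = 0.200), and it passed only with the replicate block (adjusted p = 0.0400). Without FORKO replicate 1 the difference was -0.73 (adjusted p = 0.171). Bub1b, which encodes the BubR1 part of the checkpoint complex that inhibits Cdc20, read 216.6, 248.4 and 236.0 in WT and 49.0, 222.3 and 159.5 in FORKO. Its FORKO replicate 2 lay within the WT range, and the difference was -0.91 ± 0.43 (limma adjusted p = 0.372), or -0.30 without FORKO replicate 1. A second Bub1b probe set had a difference of -0.85 (adjusted p = 0.335) with no overlap between the groups.

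Ttk, the Mps1 kinase that starts checkpoint signalling at unattached kinetochores, read 25.7, 42.5 and 37.2 in WT and 7.54, 18.6 and 27.0 in FORKO. These dim signals overlapped between FORKO replicate 3 and WT replicate 1, and the difference was -0.87 ± 0.35 (limma adjusted p = 0.286). A second, dimmer Ttk probe set had a difference of only -0.15, and 0.10 without FORKO replicate 1. Cdk1, the kinase that drives entry into mitosis, read 148.8, 183.6 and 178.0 in WT and 71.0, 153.7 and 138.5 in FORKO. Its FORKO replicate 2 stood just above the lowest WT array, and the difference was -0.54 ± 0.27 (limma adjusted p = 0.405). Aurora kinase A (Aurka), which acts at centrosomes and spindle poles, read 32.2, 63.5 and 66.5 in WT and 21.5, 63.4 and 56.9 in FORKO. Aside from FORKO replicate 1, its FORKO arrays lay inside the WT range, and the difference of -0.23 became 0.20 without that array. The same held for Aurora kinase B (Aurkb), the catalytic part of the chromosomal passenger complex, which read 39.6, 77.5 and 58.1 in WT and 12.1, 71.5 and 47.5 in FORKO, with differences of -0.57 and 0.04. A second Aurkb probe set gave -0.76, and -0.05 without FORKO replicate 1. Plk1, the Polo-like kinase of centrosome maturation and cytokinesis, read 53.8, 70.4 and 46.8 in WT and 18.7, 64.5 and 38.8 in FORKO. Nek2, a kinase of centrosome separation, averaged 52.6 ± 16.3 in WT and 41.5 ± 26.4 in FORKO (SD, n = 3), and its second probe set had a difference of -0.05.

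Of the mitotic cyclins, Ccnb2 and Ccna2 were measured, and 0 of 2 passed. Cyclin B2 (Ccnb2) read 74.7, 109.4 and 102.2 in WT and 27.0, 85.7 and 90.3 in FORKO. Cyclin A2 (Ccna2), which acts from S phase into early mitosis, read 92.8, 212.4 and 140.4 in WT and 48.3, 134.5 and 116.6 in FORKO. In both, FORKO replicates 2 and 3 lay between the lowest and the highest WT array. The differences were -0.60 ± 0.38 and -0.59 ± 0.38 (SE; limma adjusted p = 0.525 and 0.542), and without FORKO replicate 1 they were -0.09 and -0.16.

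The 3 genes of the checkpoint and the anaphase-promoting complex had a median difference of -0.59 (-0.31 without FORKO replicate 1), and 0 of 3 passed. Cdc20, the activator that the checkpoint restrains, read 561.5, 546.5 and 495.4 in WT and 163.6, 444.4 and 350.6 in FORKO. The 3 WT arrays lay close together and above every FORKO array. The difference was -0.84 ± 0.31 (SE; limma adjusted p = 0.245), or -0.43 without FORKO replicate 1. A second Cdc20 probe set had a difference of -0.49 (limma adjusted p = 0.357), with overlap between the groups. Mad2l1, the checkpoint protein that binds Cdc20, read 179.9, 291.9 and 254.3 in WT and 148.6, 193.9 and 186.9 in FORKO. Ube2c, the ubiquitin-conjugating enzyme of the complex, averaged 83.2 ± 18.7 in WT and 54.9 ± 19.7 in FORKO (SD, n = 3). For both, FORKO replicates 2 and 3 stood slightly above the lowest WT array.

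At centromeres and kinetochores 0 of 4 genes passed, with a median difference of -0.63 (-0.22 without FORKO replicate 1). Cenpf, a large protein of the outer kinetochore, read 183.5, 250.6 and 243.1 in WT and 73.6, 173.3 and 156.9 in FORKO. The groups did not overlap, and the difference was -0.80 ± 0.30 (SE; limma adjusted p = 0.254). Cenpa, the histone H3 variant that marks centromeres, read 157.9, 246.7 and 143.0 in WT and 38.1, 189.9 and 117.7 in FORKO. Its FORKO replicate 2 lay above 2 of the WT arrays, and the difference was -0.85 ± 0.46 (limma adjusted p = 0.451). Cenpe, a kinetochore motor that carries chromosomes to the spindle equator, had 2 probe sets that differed. The standing one gave -0.29 with overlapping groups, and 0.13 without FORKO replicate 1. The other read 38.6, 61.1 and 55.5 in WT and 16.6, 34.1 and 31.4 in FORKO, without overlap (-0.82, limma adjusted p = 0.211). Birc5, the survivin subunit of the chromosomal passenger complex, read 59.7, 76.7 and 75.1 in WT and 32.7, 45.2 and 80.6 in FORKO. Its highest signal was on FORKO replicate 3.

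The 5 kinesin motors had a median difference of -0.46 (-0.12 without FORKO replicate 1), and 0 of 5 passed. Kif2c, which depolymerises microtubule ends and corrects faulty kinetochore attachments, read 213.6, 243.2 and 192.6 in WT and 104.9, 137.0 and 125.6 in FORKO. The groups were far apart relative to their spread, and the 3 FORKO arrays lay close together. The difference was -0.79 ± 0.18 (SE; limma adjusted p = 0.0657), -0.69 without FORKO replicate 1 (adjusted p = 0.0663), and with the replicate block it passed (adjusted p = 0.0384). The Kif2c probe set is of a design (suffix x) that may detect related sequences, as are the standing ones of Aurkb, Cdc20 and Ncaph. The other 3 Kif2c probe sets were too dim to be tested. Kif23, the motor of the centralspindlin complex that builds the midzone, read 119.2, 125.6 and 125.1 in WT and 44.0, 87.7 and 73.7 in FORKO. The WT arrays were nearly equal and stood above every FORKO array. The difference was -0.85 ± 0.24 (limma adjusted p = 0.129), or -0.58 without FORKO replicate 1 (adjusted p = 0.137).

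Kif11, the motor that pushes spindle poles apart, read 32.4, 39.1 and 42.3 in WT and 8.20, 46.9 and 37.1 in FORKO. On this probe set only FORKO replicate 1 was low, and the difference of -0.46 became 0.13 without it. A second Kif11 probe set read 33.0, 35.2 and 30.5 in WT and 17.5, 21.6 and 26.2 in FORKO, so that there the groups did not overlap. Its difference was -0.50 (limma adjusted p = 0.357), and -0.38 without FORKO replicate 1. A further, dimmer one had a difference of -0.22 with overlap. Kif20a, which moves the passenger complex to the midzone, averaged 45.6 ± 17.1 in WT and 33.5 ± 15.8 in FORKO (SD, n = 3), with overlap. Kif4, a chromosome-bound motor, read 29.5, 30.3 and 36.5 in WT and 21.4, 29.2 and 28.6 in FORKO. Its groups did not overlap, but 2 of the FORKO arrays lay just under the WT arrays, and the difference was -0.24 ± 0.23 (limma adjusted p = 0.695).

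The 4 other spindle proteins overlapped between the groups and had a median difference of -0.50 (-0.14 without FORKO replicate 1), with 0 of 4 passing. Tpx2, the activator of Aurora A on spindle microtubules, read 78.8, 92.2 and 102.8 in WT and 38.9, 80.3 and 83.7 in FORKO. Nusap1, which binds and bundles microtubules near chromosomes, averaged 122 ± 40.2 in WT and 85.9 ± 38.2 in FORKO (SD, n = 3). Prc1, which cross-links midzone microtubules, read 91.4, 130.9 and 154.8 in WT and 40.7, 131.3 and 124.9 in FORKO. FORKO replicates 2 and 3 of Prc1 stood at the WT level, and its difference of -0.45 became 0.06 without replicate 1. A second Prc1 probe set gave -0.17, and 0.33 without that array. Dlgap5, a stabiliser of kinetochore fibres, was dim and read 21.0, 42.3 and 32.6 in WT and 5.68, 25.2 and 25.7 in FORKO (-0.72 ± 0.41, limma adjusted p = 0.478).

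The cytokinesis genes had differences of -0.60 for Racgap1 and -0.70 for Ect2, and 0 of 2 passed. Racgap1, the partner of Kif23 in centralspindlin, read 47.5, 52.6 and 46.5 in WT and 20.4, 46.3 and 28.5 in FORKO. The groups stood apart only narrowly, FORKO replicate 2 lying just below WT replicate 3 (limma adjusted p = 0.341). A second, dimmer Racgap1 probe set overlapped between the groups, with a difference of -0.49 (limma adjusted p = 0.551). Ect2, the exchange factor that activates RhoA at the cleavage furrow, read 113.4, 172.8 and 126.3 in WT and 49.7, 116.6 and 90.4 in FORKO. FORKO replicate 2 of Ect2 lay just above the lowest WT array (limma adjusted p = 0.305). Without FORKO replicate 1 the median of both genes was -0.37.

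The 6 genes of condensin and chromosome structure had a median difference of -0.70, and -0.41 without FORKO replicate 1, but 0 of 6 passed. Ncapg, a subunit of condensin I, read 101.4, 129.3 and 74.9 in WT and 23.1, 54.2 and 48.5 in FORKO. The FORKO arrays were below the WT arrays throughout, with a WT mean 2.43 times the FORKO mean. The difference was -1.21 ± 0.31 (SE; limma adjusted p = 0.0930), and -0.88 without FORKO replicate 1 (adjusted p = 0.0641). Its second probe set also showed no overlap, with a difference of -1.01 (adjusted p = 0.167). Ncaph, the subunit that joins the condensin I arms, read 173.0, 164.6 and 271.9 in WT and 59.8, 145.6 and 171.2 in FORKO. FORKO replicate 3 lay between the lower WT arrays (-0.76 ± 0.36, limma adjusted p = 0.368).

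Smc2 and Smc4 form the ATPase core shared by both condensins. Smc2 read 253.9, 322.4 and 281.2 in WT and 155.1, 221.0 and 213.1 in FORKO, without overlap (-0.54 ± 0.19, limma adjusted p = 0.228). Another Smc2 probe set also had no overlap (-0.49), while a further one overlapped (-0.59). Smc4 read 490.9, 624.8 and 446.9 in WT and 468.9, 332.2 and 296.2 in FORKO. It was the 1 gene whose FORKO replicate 1 stood inside the WT range while replicates 2 and 3 lay below it. Its difference was -0.52 ± 0.21 (limma adjusted p = 0.292), and -0.71 without FORKO replicate 1 (adjusted p = 0.0596). The other Smc4 probe sets did not share that order: FORKO replicate 1 was the lowest array on both, at 136.3 and 258.9, and their differences were -0.46 and -0.33.

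Top2a, the topoisomerase that untangles sister chromatids, read 279.9, 457.6 and 360.2 in WT and 110.2, 267.3 and 255.9 in FORKO. The groups did not overlap (-0.85 ± 0.32, limma adjusted p = 0.263, and 0.0542 with the replicate block). A second, dimmer Top2a probe set had a difference of -0.62 (limma adjusted p = 0.378), with overlap between the groups. Mki67, the Ki-67 protein that coats mitotic chromosomes and is the usual marker of dividing cells, read 346.5, 449.9 and 439.5 in WT and 169.4, 297.2 and 340.7 in FORKO. Its FORKO replicate 3 lay just under WT replicate 1, so that the groups stood apart narrowly (-0.65 ± 0.25, limma adjusted p = 0.271).

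**Figure D3:**
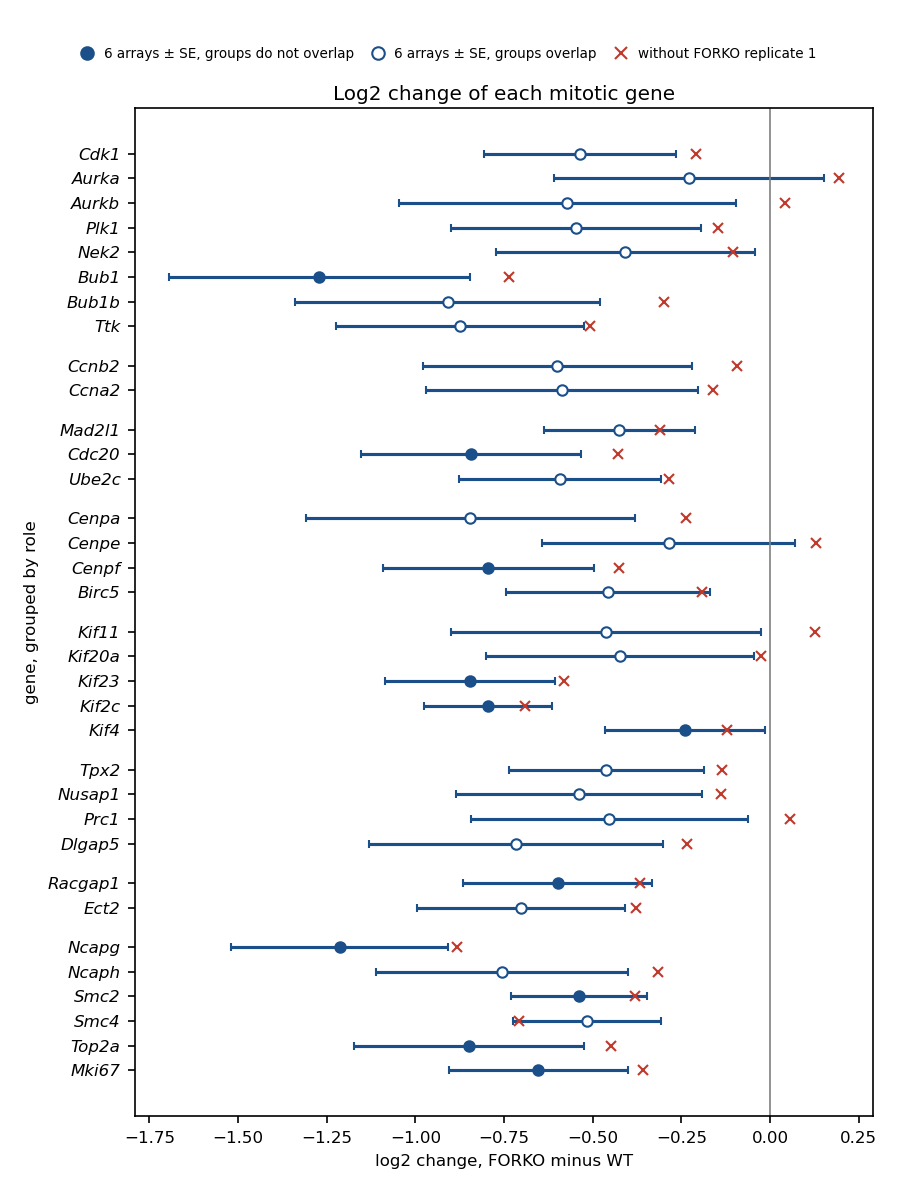
Log2 change (FORKO minus WT, horizontal axis) of the 34 mitotic genes grouped by role; circles with bars are the change over 6 arrays ± SE, filled where the groups do not overlap, and crosses are the change without FORKO replicate 1. All circles lie below 0, from -1.27 for Bub1 to -0.23 for Aurka, and the crosses of Aurka, Aurkb, Cenpe, Kif11 and Prc1 lie above 0.

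**Figure D4:**
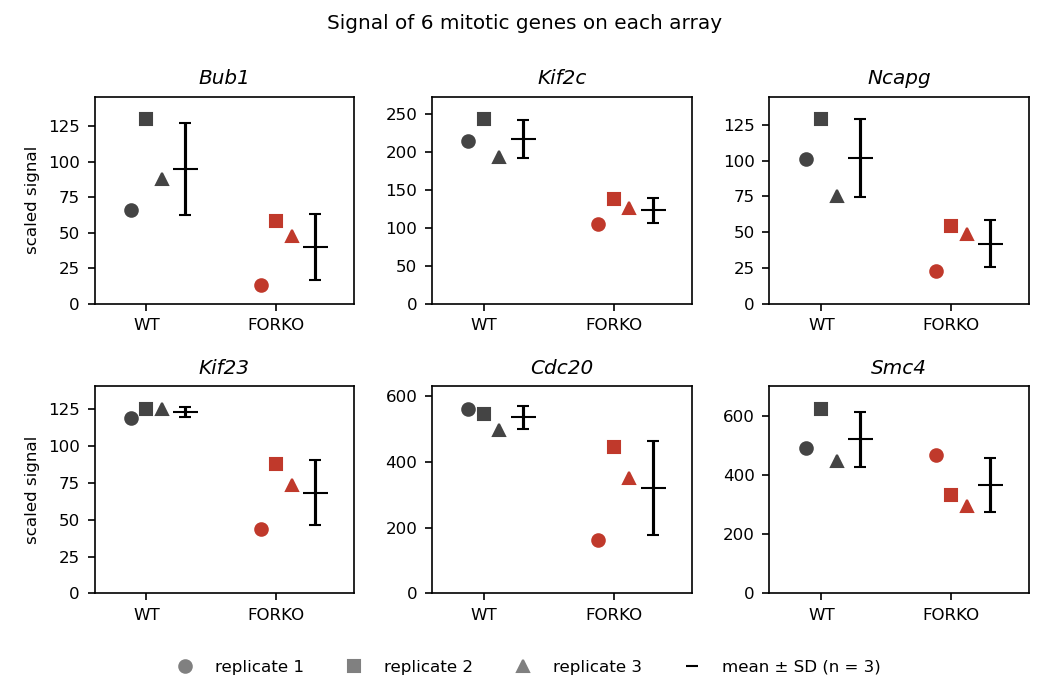
Scaled signal (vertical axis, linear, from 0) of Bub1, Kif2c, Ncapg, Kif23, Cdc20 and Smc4 on the 3 WT and 3 FORKO arrays, with a marker for each replicate and the mean ± SD (n = 3) beside them. The groups do not overlap in 5 of the panels, and in Smc4 FORKO replicate 1, at 468.9, lies within the WT range.

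The genes followed one another over the arrays, with a median Pearson r of 0.936 between each gene and the mean of the other mitotic genes over 6 arrays. The highest r was 0.996, for Cdk1, and the lowest were 0.13 for Smc4 and 0.77 for Nek2. Of the 34 genes, 23 reached 0.9, and of the other genes tested 369 (3.3%) reached 0.9 with the mean of all 34. The other genes most like that mean were Pyurf (0.995), Uck2 (0.994), Pbk (0.994), Kpna2 (0.992) and Tpm1 (0.991). These correlations are descriptions of 6 shared arrays in which FORKO replicate 1 lay far below the others. In all, the mitotic genes had 76 probe sets. Of the 42 that did not stand for a gene, 19 were bright enough to be tested; they belonged to 16 genes, all 19 had negative differences and 0 passed limma.

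A wider list of mitotic companions, such as the outer kinetochore, the anaphase-promoting complex and cohesin, had 78 genes bright enough of 90. Of these 72 had negative differences, the median was -0.29, and 0 passed limma, while the block passed 2 (Cdca8 and Spc25) and the fit without FORKO replicate 1 passed 2 (Aspm and Cdca8). Of all probe sets, 1.16% passed on the lower side with the block and 1.20% without FORKO replicate 1. In 25 of 78 companions (32.1%) the FORKO arrays were below the WT arrays throughout, beside the 10.4% of all probe sets. Aspm, a spindle pole protein, read 183.1, 222.1 and 185.6 in WT and 29.0, 107.4 and 118.5 in FORKO (-1.36 ± 0.42, limma adjusted p = 0.161; -0.77 and 0.0418 without FORKO replicate 1). Cdca8, the borealin subunit of the passenger complex to which Aurkb and Birc5 belong, read 469.3, 528.6 and 437.1 in WT and 138.8, 272.9 and 275.0 in FORKO. Its groups stood well apart (-1.10 ± 0.26, limma adjusted p = 0.0703; 0.0384 with the replicate block and 0.0222 without FORKO replicate 1).

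DNA replication genes, which act in S phase before mitosis, differed in how the FORKO arrays stood. All 31 genes tested of 33 had negative differences, with a median of -0.57. In 22 of 31 (71.0%) there was no overlap, beside 10.4% of all probe sets tested. In limma 0 passed. With the block 1 passed and without FORKO replicate 1 2 passed, beside 1.16% and 1.20% of all probe sets on the lower side. The medians of the replication genes were -0.66, -0.44 and -0.56 on FORKO replicates 1, 2 and 3, and -0.48 was the median difference without replicate 1. FORKO replicate 1 was still the lowest array for 20 of the 31, beside 33 of the 34 mitotic genes and 2900 of all 11199 genes tested. For the mitotic genes the same array medians were -1.35, -0.23 and -0.30; the difference between the lists was not tested. Cyclin E2 (Ccne2), which opens S phase, read 110.3, 158.1 and 94.5 in WT and 30.1, 66.0 and 42.8 in FORKO (-1.31 ± 0.28, limma adjusted p = 0.0561). It passed with the block (0.0182) and without FORKO replicate 1 (0.0342) or replicate 2 (0.0318). Uhrf1, which helps copy DNA methylation, read 181.8, 250.2 and 114.8 in WT and 48.3, 106.1 and 80.2 in FORKO (-1.16 ± 0.32, adjusted p = 0.126).

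**Figure D5:**
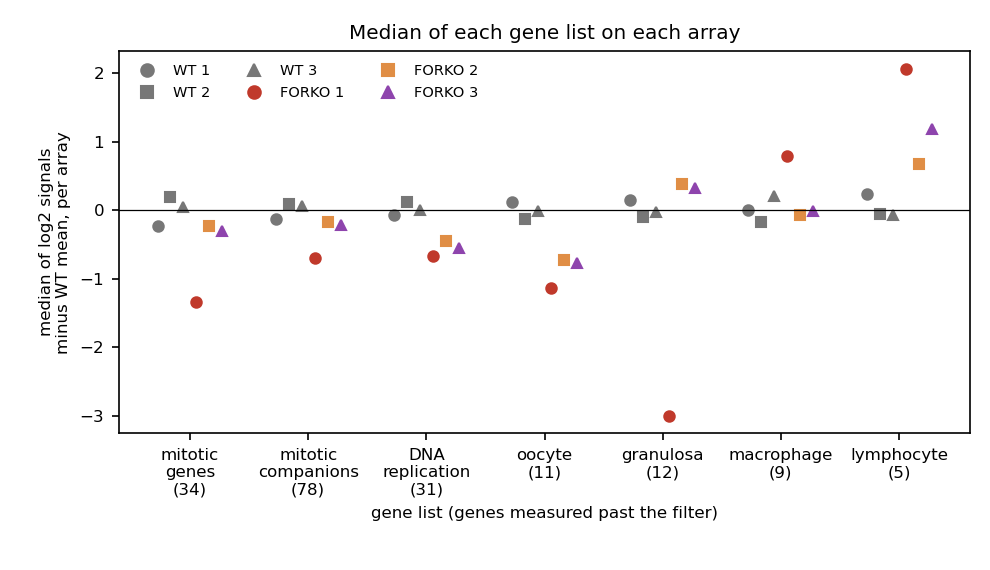
Median over each gene list (horizontal axis, with the number of genes tested) of log2(signal + pseudocount) minus the WT mean on each of the 6 arrays (vertical axis); grey markers are WT arrays and coloured markers FORKO arrays. FORKO replicate 1 stands apart at -1.35 for the mitotic genes and -3.00 for granulosa genes, while the replication genes lie between -0.66 and -0.44 on all FORKO arrays.

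Markers of ovarian cell types were measured on the same arrays, and their part in the differences above was not tested. Summed signals cover every measured marker of a list, also those too dim to be tested. The sums hold 13 granulosa, 15 oocyte, 12 germline, 6 luteal, 10 macrophage and 11 lymphocyte markers. They hold 8 surface epithelium, 7 endothelial, 6 smooth muscle and 3 erythroid markers. Of all 11199 genes tested, 94 passed limma as lower and 146 as higher. Of 12 granulosa markers 8 had negative and 4 positive differences, and 1, Fshr, passed limma as lower. Without FORKO replicate 1 their median difference was 0.36. Their median on FORKO replicates 1, 2 and 3 was -3.00, 0.38 and 0.32, and their summed signal was 7678, 18026 and 18755, against 14431 to 19015 in WT. Inhba, the activin subunit of growing follicles, read 54.2 on FORKO replicate 1 and 3867 and 3756 on the other FORKO arrays. Amh was near 1 on all arrays of both groups. Of 11 oocyte markers 4 passed as lower (Rfpl4, Oosp1, Zp2 and Zar1), with a summed signal of 593 to 879 in FORKO and 1439 to 1742 in WT. Germline cell cycle genes summed to 133 to 187 in FORKO and 248 to 295 in WT, and 1 of 12, Btg4, was bright enough to be tested (limma adjusted p = 0.0513). Luteal markers summed to 8349 to 11769 in FORKO and 13187 to 14254 in WT, with 0 of 6 passing.

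Macrophage markers, 0 of the 9 tested passing, summed over the 10 measured to 5614 on FORKO replicate 1. The sums were 2554 and 3279 on replicates 2 and 3, against 2711 to 3035 in WT. Lymphocyte markers, 0 of the 5 tested passing, summed over the 11 measured to 1824 on FORKO replicate 1. The sums were 445 and 719 on the other FORKO arrays and 372 to 464 in WT. By summed signal, the mitotic, granulosa, oocyte, germline, luteal, smooth muscle and, narrowly, endothelial lists were all lowest on FORKO replicate 1. The macrophage, lymphocyte and surface epithelium lists were highest on that array. Of 8 surface epithelium markers 3 passed as higher, and of 5 smooth muscle markers 1, Actg2, passed as lower. Beside these, 146 of all 11199 genes tested passed as higher and 94 as lower. Of 5 endothelial markers 0 passed, with a median of 0.05, and erythroid markers were dim on every array, summing to 16.4 to 31.7.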

How the data were processed

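Total RNA of whole ovaries was measured on 1 array per sample, 3 WT and 3 FORKO. The deposited values are linear intensity signals, which the authors made with MAS5 per the submitters' processing notes. No source used here gives their scaling target or detection calls. Groups and replicate numbers came from the titles. Factors of 0.895 to 1.09 brought the arrays to 1 trimmed mean (2% off each end). Signals were then taken as log2(signal + 5.73), where 5.73 is the pooled 25th percentile. After removal of 64 control probe sets, 22506 probe sets had a mean signal of at least 20.4. Each was tested two-sided in R 4.3.3 with limma 3.58.1 (lmFit, and eBayes with a trend on intensity), and p-values were adjusted over all of them by Benjamini-Hochberg. The script was tested on simulated data. Comparing every array with every other, within and between the groups, found 0 identical pairs. The number of arrays limits the precision.

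Of the probe sets, 34958 carried 1 symbol in the platform annotation, 932 more than 1 symbol and 9211 no listed symbol; 34754 matched the gene table by Entrez identifier. The members and lists were chosen with earlier results of these data known. The text names every member, Fshr, in each further list the members that passed or the 2 with the largest change, and the 5 genes most like the members' mean. Spc25, Btg4, Inhba, Amh, Zwint, Actg2 and the oocyte genes were named after their values were seen. Promoter windows came from RefSeq on GRCm38.p6 by symbol, and motifs were searched as exact letters on both strands.

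Same-numbered WT and FORKO arrays deviated together (correlations of 0.195, 0.134 and 0.358), so by the rule that each exceed 0.1 the numbers were taken as pairs. This pairing comes from the data, not the labels. Alternatives covered scaling, pseudocount, filter, variance trend, other probe sets, the replicate block and each array left out. Figures were drawn with matplotlib 3.10.9.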

Additional observations from a re-analysis of the deposited data

How the results depend on the processing

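Under 17 settings, that of the report included, the number of mitotic genes passing limma stayed at 0, except that with the replicate block 2 passed. All genes tested stayed below WT (34, or 25 where a mean signal of 50 was required), except without FORKO replicate 1. Without it 5 differences turned positive. With 1 array left out, Aurka ran from -0.53 to 0.20, Aurkb from -1.02 to 0.043, Cenpe from -0.57 to 0.13, Kif11 from -0.84 to 0.13 and Prc1 from -0.73 to 0.056. The median difference ran from -0.66 (arrays scaled to 1 median) to -0.43 (scaled to bacterial spikes, where the median of all probe sets moved to 0.15), and from -0.84 to -0.26 with 1 array left out. The number of all probe sets that passed was 372, with 589 under spike scaling, 221 without the filter on dim probe sets and 691 with the replicate block; it ran from 63 (without WT replicate 2) to 860 (without FORKO replicate 1) with 1 array left out. The share of these on the higher side was 64.0%, 50.6% under median scaling and 84.0% under spike scaling. The cause of these shifts was not tested. Ccne2 passed under quantile (adjusted p = 0.0493), deposited (0.0441) and median scaling (0.0458), and Cdca8 under median scaling (0.0483). With the block, no other member's call changed. Dim genes such as Ttk, Dlgap5 and Kif11 have signals near the pseudocount on FORKO replicate 1, so their fold changes there are not resolved.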

Other observations

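Regulators of mitotic transcription were measured as a separate list. Of 18 tested of 21 (E2F, DP, retinoblastoma-family, NF-Y and DREAM-complex genes, with Foxm1 and Mybl2), 12 had negative and 6 positive differences, the median was -0.07, and limma passed 0 in the main design, with the replicate block and without FORKO replicate 1. At an unadjusted limma p of 0.05, 2 of 18 were lower, beside 6.93% of all probe sets tested. The largest differences were in the atypical E2F repressors, which are themselves transcribed in dividing cells. E2f8 read 32.7, 34.0 and 31.2 in WT and 12.8, 26.0 and 21.2 in FORKO (-0.61, limma adjusted p = 0.319). E2f7 read 58.2, 49.4 and 47.4 in WT and 21.9, 45.4 and 34.0 in FORKO (-0.58, adjusted p = 0.333). In both genes every FORKO array lay below every WT array. This order was found in 5 of the 18 genes, beside 10.4% of all probe sets tested.

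Among the 78 mitotic companions tested, Zwint, a kinetochore protein that anchors checkpoint regulators, was the 1 gene whose FORKO arrays all lay above the WT arrays. Of all 11199 genes tested, 1195 had this order. Zwint read 505.4, 646.1 and 752.7 in WT and 811.2, 803.4 and 834.8 in FORKO (0.38, limma adjusted p = 0.346). FORKO replicate 1 did not stand apart for Zwint, and the difference was also 0.38 without that array.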
